A study of Mus musculus with 3 samples.

Results

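The genes described here are 9 genes of adrenergic sensing and of the response to cyclic AMP, chosen by symbol from the 28692 genes in the deposited matrices, of which 19870 had a UMI in the cells used. A UMI (unique molecular identifier) marks 1 captured RNA molecule. The 9 are the β-adrenergic receptors Adrb1 and Adrb3, the phosphodiesterases Pde4b, Pde4d and Pde3b, the transcription factor Crem and the orphan nuclear receptors Nr4a1, Nr4a2 and Nr4a3. They were read in every barcode with at least 500 detected genes and at most 15% mitochondrial UMIs, by cell class and library. The question they bear on is which cells of the stromal fraction could sense catecholamines or CL 316,243 themselves.

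Single-cell libraries (10x Chromium, 3′ v3 chemistry) came from the stromal vascular fraction of inguinal white fat of C57BL/6 mice, that is, from the cells of fat other than floating mature adipocytes. The CL library came from mice injected intraperitoneally with CL 316,243 (1 mg/kg, 3 days), which activates the β3-adrenergic receptor selectively. The cold library came from mice kept at 4 C for 3 days, and the saline library from control mice. There was 1 library per group. The sources used here do not state the number of animals behind each, their age and sex, or any injection of the cold mice.

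Noradrenaline from sympathetic nerves acts on β-adrenergic receptors, which couple through the stimulatory G protein to adenylyl cyclase and raise cyclic AMP. In adipocytes this pathway starts lipolysis and heat production, and the β3 receptor of rodents is known chiefly from mature fat cells. Cyclic AMP activates protein kinase A, which phosphorylates the transcription factor CREB. CREM and the NR4A receptors are encoded by early genes that CREB can induce, and phosphodiesterases end the signal by cleaving cyclic AMP. CREM and NR4A genes also respond to antigen receptors, inflammation and the stress of tissue dissociation.

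The CL, cold and saline libraries held 29323106, 19899223 and 25875379 UMIs in 7943, 5050 and 7674 barcodes. The filter kept 6705, 3862 and 6271 cells, 16838 in all, with medians of 3847, 3624.5 and 3242 UMIs per cell. Between 4 and 9 cell barcodes were shared by each pair of libraries. Clusters took a class from lists of marker genes, and a name such as B cell-like stands for the type whose markers led; 11 classes had at least 50 cells in every library. Pericyte or smooth muscle-like (57, 48 and 82 cells) and Schwann-like cells (32, 64 and 60) were too few for ratios and are given by level. Unnamed cluster 14 (1016, 15 and 180 cells), led by Ccr2 and Ly6c2, was not described further. Levels are CPM, the UMIs of a gene per 1000000 UMIs after adding up all cells of a class in a library. Ratios are log2 values of CPM, with the library named first on top. The median gene's own ratio to saline lay between -0.08 and 0.24 by class. Intervals in parentheses are 95% intervals for counting error only. With no replicate library, no test was possible, and a difference between libraries cannot be told apart from one between animals or preparations. Both comparisons with saline share that library.

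The RefSeq promoter table (GRCm38.p6) held entries for 6 of the 9 genes: Adrb1, Pde4b, Pde4d and the 3 Nr4a genes. The Nr4a promoters are shown because these genes are textbook CREB targets and moved together in endothelial-like and B cell-like cells below. Each line gives the 250 bases before the start of transcription, 5′ to 3′ on the gene's strand, with every TGACG or CGTCA in capitals, which is the half-site of the cyclic AMP response element on either strand. They lie at chr15:101266596-101266845 on the plus strand (Nr4a1), chr2:57124004-57124253 on the minus strand (Nr4a2) and chr4:48045055-48045304 on the plus strand (Nr4a3).
Nr4a1: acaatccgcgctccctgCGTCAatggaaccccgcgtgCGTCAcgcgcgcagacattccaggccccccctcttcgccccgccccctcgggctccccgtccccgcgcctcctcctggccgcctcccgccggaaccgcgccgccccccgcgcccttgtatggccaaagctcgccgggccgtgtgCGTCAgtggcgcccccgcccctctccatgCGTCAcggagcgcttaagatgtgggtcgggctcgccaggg
Nr4a2: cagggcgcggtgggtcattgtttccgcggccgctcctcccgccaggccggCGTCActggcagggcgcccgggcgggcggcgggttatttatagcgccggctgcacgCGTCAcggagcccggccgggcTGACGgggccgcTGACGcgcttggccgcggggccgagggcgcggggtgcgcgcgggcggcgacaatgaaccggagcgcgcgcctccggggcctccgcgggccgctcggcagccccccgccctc
Nr4a3: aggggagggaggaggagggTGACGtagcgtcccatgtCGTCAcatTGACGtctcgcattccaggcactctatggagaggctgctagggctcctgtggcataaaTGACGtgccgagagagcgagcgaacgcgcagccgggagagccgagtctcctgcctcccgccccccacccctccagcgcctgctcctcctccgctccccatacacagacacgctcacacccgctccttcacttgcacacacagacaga
Each of these promoters held 4 half-sites. Of 32841 promoters of the same table (300 bases, from 250 before to 50 after the start), 20.8% held at least 1 half-site and 0.231% at least 4. The nearest half-site began 40 bases before the start in Nr4a1, 111 in Nr4a2 and 147 in Nr4a3. Adrb1 and 1 of the 4 Pde4b promoters held 1 half-site each, and the Pde4d promoter none. None of the 9 promoters searched for these 6 genes held the full palindrome TGACGTCA, which 1.79% of all promoters held. A match is a description of letters, not evidence of binding.

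The receptor that CL 316,243 acts on was close to undetected. Adrb3 (ENSMUSG00000031489; chromosome 8, 27225776 to 27250616, minus strand, GRCm38) had 6 UMIs in the CL, 2 in the cold and 6 in the saline cells. These 14 UMIs lay in 11 of 16838 cells. Endothelial-like cells held 5, 1 and 1 of them, ASPC-like cells (adipose stem and progenitor cells) 1, 1 and 0, and no other class held more than 1. Of the 5 UMIs in CL endothelial-like cells, 4 came from a single cell, which also held 25 UMIs of the adipocyte hormone gene Adipoq. Pericyte or smooth muscle-like, Schwann-like, T cell-like, NK cell-like, mature dendritic, type 1 dendritic and plasmacytoid dendritic cell-like cells held none.

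RNA of adipocytes stood beside Adrb3 in the same barcodes. Of the 11 cells with an Adrb3 UMI, 5 also held a UMI of Adipoq, Plin1 or Cidec, which code for an adipocyte hormone and for coat proteins of its lipid droplets, against 1.30% of all cells. Adipoq stood at 678 CPM in cells with Adrb3 and at 1.79 CPM in cells without. Of the 34 Adipoq UMIs behind the first value, 25 came from the single CL endothelial-like cell with 4 Adrb3 UMIs. The same adipocyte genes were seen in 7.98% of all endothelial-like cells. In endothelial-like cells 4 of 915 cells held an Adrb3 UMI, at a median of 2613 UMIs per cell, against 1 of 3232 B cell-like cells, which should lack the receptor, at 2026.5 UMIs. At these counts expression cannot be told apart from free RNA or RNA of attached adipocytes. Across 40 sums of a class in a library, the genes whose level on the log2(CPM + 10) scale ran most like Adrb3 were Adipoq (Pearson r = 0.82), Nos2 (0.75) and Retn (0.72). This is a description that rests on 14 UMIs.

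More Adrb3 per UMI lay in the barcodes that the filter left out. Of 25 Adrb3 UMIs in all barcodes, 11 were in barcodes outside the filter, and 8 of those were in the 392 barcodes with at least 500 genes and over 15% mitochondrial UMIs. By library these 8 were 6 in CL, 2 in cold and 0 in saline. Adrb3 stood at 7.99 CPM (3.45 to 15.7) there, against 0.198 CPM in the cells kept. Over all barcodes left out, the log2 ratio to the cells kept was 3.71 (2.43 to 4.96), and within the CL library 4.44 (2.53 to 6.34). The same 392 barcodes held Adipoq at 145 against 2.27 CPM and Ucp1, the uncoupling protein of thermogenic fat, at 268 against 2.61 CPM. Of their 268 Ucp1 UMIs, 14 were in the CL, 252 in the cold and 2 in the saline library. By library Adipoq had 41, 14 and 90 UMIs there in CL, cold and saline. The Adrb3 counts of 6, 2 and 0 are too few to set an order over the libraries to compare with that of Adipoq. The upper limit for the 0 in saline, given in a later section, lies above the cold level. Adrb1 had 2 UMIs in these barcodes, or 1.998 CPM, against 0.720 CPM in the cells kept, with intervals that overlap.

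**Figure D1:**
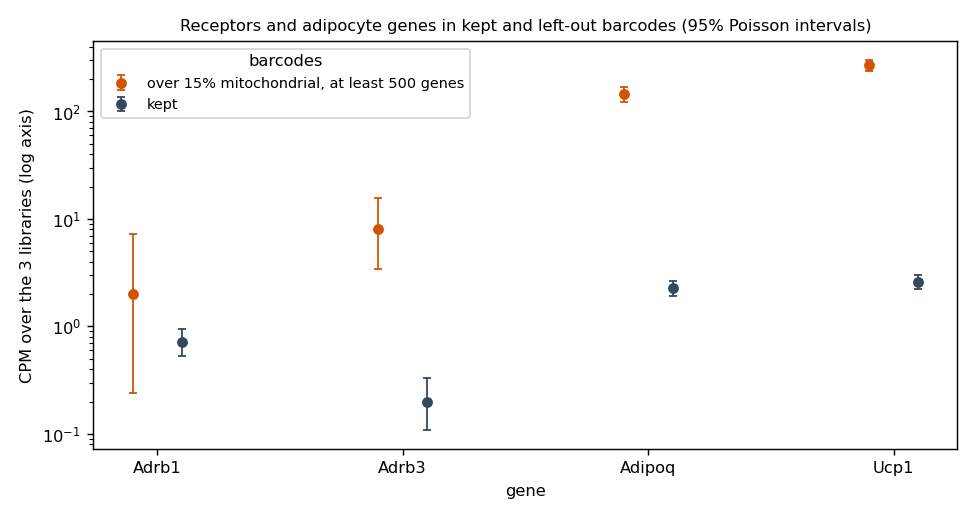
Level in CPM (log axis) of Adrb1, Adrb3, Adipoq and Ucp1 over the 3 libraries, in the 392 barcodes with at least 500 genes and over 15% mitochondrial UMIs and in the 16838 cells kept, with 95% Poisson intervals. The intervals of Adrb3, Adipoq and Ucp1 do not overlap between the barcode sets, and those of Adrb1 do.

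Adrb1, the β1 receptor of heart and brown fat (ENSMUSG00000035283; chromosome 19, 56722199 to 56733113), was rare but spread over more classes. It had 13 UMIs in the CL, 8 in the cold and 30 in the saline cells, in 49 cells. Pericyte or smooth muscle-like cells had the highest level of the named classes in CL and saline. They stood at 10.01 CPM in CL, 2.68 in cold and 12.6 in saline, from 3, 1 and 5 UMIs. In cold, type 2 dendritic cell-like cells stood higher, at 2.90 CPM from 3 UMIs. Over the 3 libraries 9 of 187 pericyte or smooth muscle-like cells held a UMI, against 1 of 3232 B cell-like cells. Of the 9, 4 were among the cells with the highest doublet scores, as were 7 of the 49 cells with Adrb1 in all, and the part of doublets was not tested. The 3 genes most like Adrb1 across the same 40 sums were Cck, Rbpms2 and Lmod1 (Pearson r = 0.85, 0.85 and 0.84), and leiomodin 1, from Lmod1, is a smooth muscle actin nucleator. Macrophage-like cells held 3, 1 and 9 UMIs, monocyte-like cells 2, 1 and 4, type 2 dendritic cell-like cells 1, 3 and 5 and ASPC-like cells 1, 1 and 4. Endothelial-like, Schwann-like, T cell-like and type 1 dendritic cell-like cells held none. In no class did Adrb1 or Adrb3 reach the 20 UMIs in 1 library that a ratio required.

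Among the α-adrenergic receptors, Adra1b, the α1B receptor, was the one with over 100 UMIs, at 135 in the CL, 101 in the cold and 253 in the saline cells. It stood at 17.1 CPM in CL and 22.0 in cold, against 28.4 in saline, in ASPC-like cells, which held 454 of these UMIs. Its ratios to saline there were -0.73 (-1.06 to -0.42) for CL and -0.37 (-0.73 to -0.02) for cold. The level differed between clusters of the class: in cluster 8, with 192 of 1105 CL and 677 of 1267 saline cells, it was 48.3 CPM in CL and 37.7 in cold, against 50.2 in saline, and in cluster 17, with 718 CL and 69 saline cells, 14.2 CPM in CL, against 16.1 in saline. Pericyte or smooth muscle-like cells carried it at 26.7 CPM in CL, 2.68 in cold and 30.1 in saline, from 8, 1 and 12 UMIs. Adra1a, Adra1d and the 3 α2 receptor genes had at most 27 UMIs each in any library. By class, Adra2c stood at 6.67 CPM in CL, 29.5 in cold and 2.51 in saline in pericyte or smooth muscle-like cells. These came from 2, 11 and 1 UMIs, and 3 cells held 9 of the 11. Endothelial-like cells had Adra2c at 2.60, 9.35 and 10.1 CPM, from 2, 10 and 12 UMIs. Adra1a was at 17.6 CPM, from 7 UMIs, in saline pericyte or smooth muscle-like cells and at 2.68 CPM, from 1 UMI, in cold ones.

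**Figure D2:**
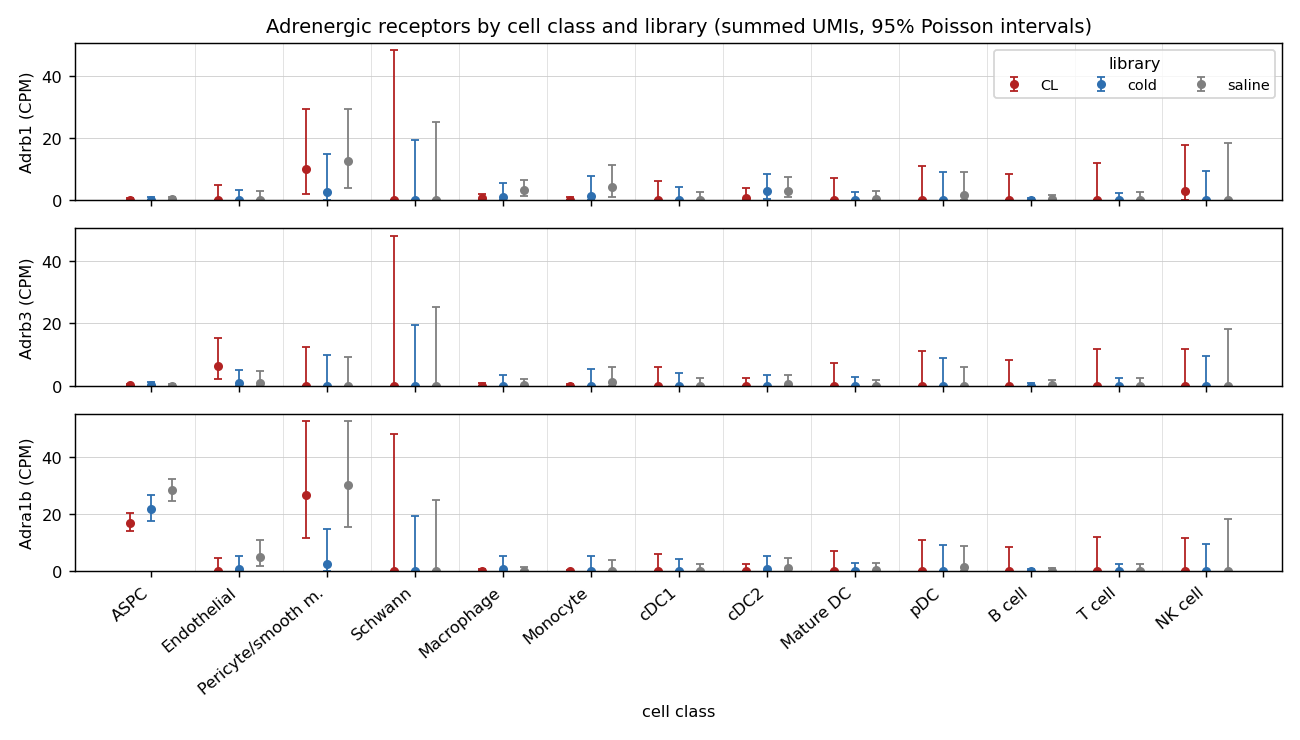
Levels of Adrb1, Adrb3 and Adra1b in CPM, with 95% Poisson intervals, by cell class (named by nearest type) for the CL, cold and saline libraries. Adra1b stands out in ASPC-like and pericyte or smooth muscle-like cells, and Adrb1 and Adrb3 lie near 0 in most classes.

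For the other 7 genes, a ratio was formed wherever the higher library had at least 20 UMIs and the lower at least 1. A gene is counted below where it was at least 2-fold different in either direction, and the share of all genes measured in that class that passed the same fold follows in parentheses. In B cell-like cells 3 of 7 measured members passed in CL (10.2% of genes) and 3 of 7 in cold (4.27%). Endothelial-like cells had 3 of 5 in CL (13.0%) and 3 of 5 in cold (9.25%). Plasmacytoid dendritic cell-like cells had 2 of 4 in CL (9.51%) and 3 of 4 in cold (10.7%). Mature dendritic cell-like cells had 2 of 7 in CL (8.58%) and 1 of 7 in cold (3.79%). In macrophage-like cells it was 1 of 6 in CL (16.5%) and 1 of 6 in cold (5.08%), which for CL is a share like that of all genes. Most CL macrophage-like cells were in cluster 18, which held 938 CL, 0 cold and 67 saline cells and has the acute-phase gene Saa3 among its leading genes, so class ratios for CL compare partly different clusters. ASPC-like cells had 0 of 7 in CL (7.51%) and 1 of 7 in cold (4.11%), and monocyte-like cells 0 of 6 (9.64%) and 1 of 5 (11.3%). Type 1 dendritic cell-like cells had 1 of 5 in CL (7.97%) and 0 of 5 in cold (5.20%), and type 2 dendritic cell-like cells 1 of 6 (11.3%) and 0 of 6 (4.80%). T cell-like cells had 0 of 7 in CL (11.2%) and 0 of 7 in cold (6.78%), and NK cell-like cells 0 of 5 in CL (478 of 2389 genes) and 0 of 6 in cold (7.93%). Members that reached 20 UMIs are those with RNA enough to measure, so these counts describe them and not all 9 genes.

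**Figure D3:**
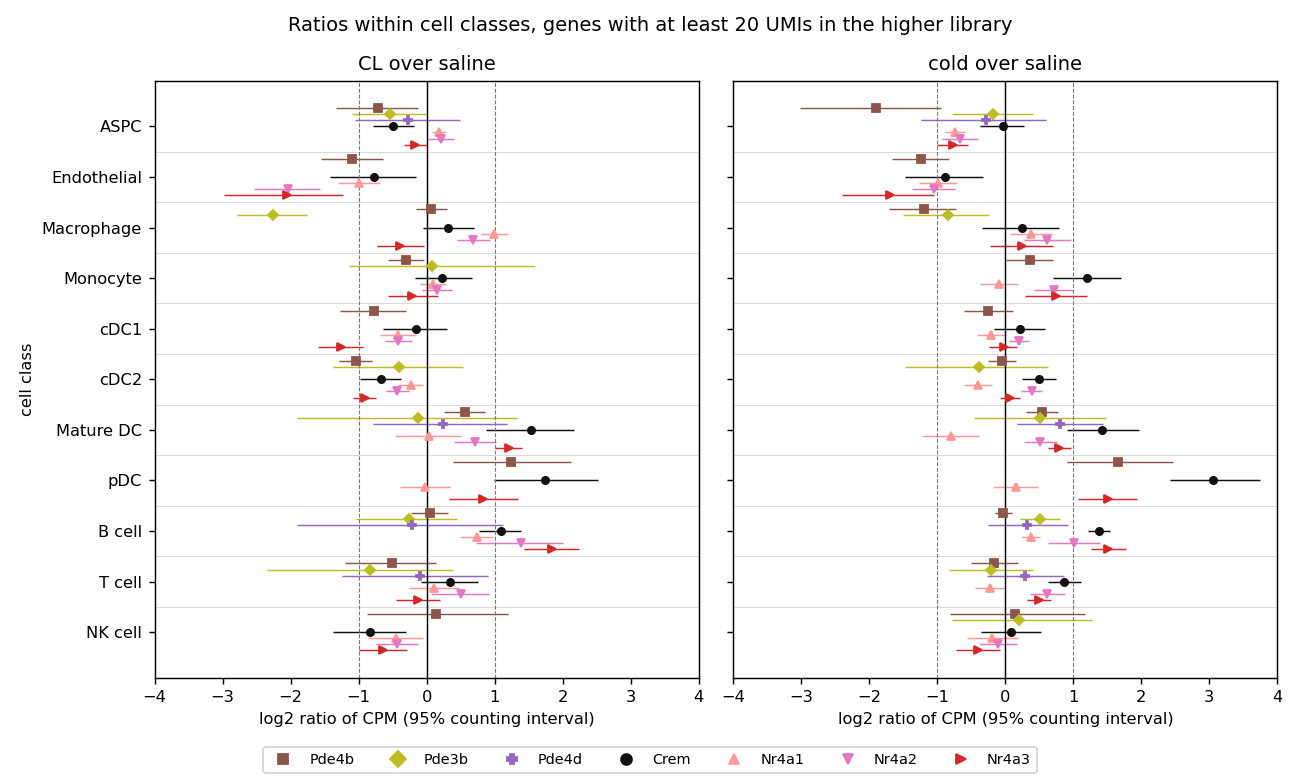
Log2 ratio of CPM, CL over saline (left) and cold over saline (right), of 7 genes in 11 cell classes (named by nearest type), with 95% counting intervals; dashed lines mark a 2-fold difference. The points of endothelial-like cells all lie below 0 in both panels, while Crem in plasmacytoid dendritic cell-like cells stands at 1.74 in CL and 3.06 in cold.

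Pde4b (ENSMUSG00000028525; chromosome 4, 102087543 to 102607259), a cyclic AMP-specific phosphodiesterase of leukocytes, had the most UMIs of the 3 phosphodiesterases, 8052 in all. B cell-like cells carried it at 311 CPM in CL, 296 in cold and 302 in saline, and its ratios to saline there were 0.05 (-0.22 to 0.31) and -0.03 (-0.15 to 0.10). It was at 154, 305 and 317 CPM in type 2 dendritic cell-like cells, a CL over saline ratio of -1.04 (-1.28 to -0.81). ASPC-like cells had the lowest mean of the 11 classes, below NK cell-like cells, the next lowest, in all 3 libraries. Their levels were 5.14 CPM in CL, 2.27 in cold and 8.48 in saline. The cold over saline ratio in ASPC-like cells was -1.90 (-3.03 to -0.94), from 10 and 69 UMIs. It stood at -3.33 without the 3 cells with most UMIs in each library, and at -2.63 without the highest doublet scores.

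Endothelial-like cells had Pde4b at 70.3 CPM in CL and 63.6 in cold, against 150.02 in saline. Both ratios were below -1: -1.09 (-1.56 to -0.65) for CL and -1.24 (-1.66 to -0.83) for cold, with -0.72 for CL at most 5% mitochondrial UMIs and -0.98 for cold in the largest cluster. Plasmacytoid dendritic cell-like cells went the other way, with 84.6 CPM in CL and 113 in cold, against 35.7 in saline, ratios of 1.24 (0.39 to 2.12) and 1.66 (0.90 to 2.47). At the finer clustering the CL ratio was 0.83. Macrophage-like cells held 98.7, 41.0 and 94.1 CPM, with a cold over saline ratio of -1.20 (-1.71 to -0.72), or -0.90 at most 5% mitochondrial UMIs. There CL over cold was 1.27 (0.81 to 1.76), but -0.015 without cluster 18 and the mostly CL monocyte-like cluster 10, a setting chosen after seeing the data. Within cluster 11 Pde4b was at 35.4 CPM in CL and 26.7 in cold, against 77.9 in saline, and within cluster 18 at 108 CPM in CL, against 118 in saline. The cause was not tested. In pericyte or smooth muscle-like cells the level was 56.7, 37.6 and 181 CPM from 17, 14 and 72 UMIs.

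Pde3b (ENSMUSG00000030671; chromosome 7, 114415281 to 114539251) codes for the enzyme through which insulin lowers cyclic AMP in fat cells. Its highest mean level was in NK cell-like cells, at 60.2 CPM in CL, 74.2 in cold and 64.6 in saline, overlapping that of B cell-like cells, at 41.2, 69.8 and 49.2 CPM. Macrophage-like cells had 9.89 CPM in CL and 26.3 in cold, against 47.4 in saline. Their CL over saline ratio of -2.26 (-2.79 to -1.76) fell to -0.16 in the largest cluster, cluster 18, and to -0.85 without clusters 18 and 10. CL over cold was -1.41 (-2.14 to -0.66) and turned to 0.12 without these clusters. Within cluster 11, which holds most cold and saline macrophage-like cells, Pde3b was at 26.6, 27.9 and 46.0 CPM in CL, cold and saline, against an interval of 4.61 to 10.2 CPM, from 27 UMIs, in CL cells of cluster 18. Among progenitors it also went by cluster: cluster 7, with Col15a1 among its leading genes, had 27.1, 21.5 and 23.5 CPM, and cluster 8, led by Pi16, had 5.91, 3.77 and 2.83 CPM. ASPC-like Pde3b differed less between libraries, at 6.50, 8.38 and 9.46 CPM, than between these clusters.

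Pde4d (ENSMUSG00000021699; chromosome 13, 108449948 to 109953461), a relative of Pde4b, had 573 UMIs. It was highest by mean in T cell-like cells, at 32.3, 42.4 and 34.6 CPM, and next in mature dendritic cell-like cells, at 25.6, 37.7 and 21.6 CPM, with spreads that overlap. No measured ratio of Pde4d to saline reached 2-fold, and only the cold over saline ratio of mature dendritic cell-like cells, 0.80 (0.17 to 1.44), had an interval clear of 0. Over the whole list of 15 phosphodiesterase genes, macrophage-like cells had 4 of 7 measured genes at least 2-fold lower in CL (8.51% of all genes), with a median of -1.35 against 0.10 over all genes. These 4 include Pde2a at -1.83 (-2.35 to -1.32) and Pde7a at -1.35 (-1.89 to -0.82), in a class where CL cells were mostly of cluster 18. In endothelial-like cells 2 of 4 were higher and 2 lower in either comparison, with Pde2a, the leading one, at 230.4 CPM in CL, 287 in cold and 203 in saline.

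**Figure D4:**
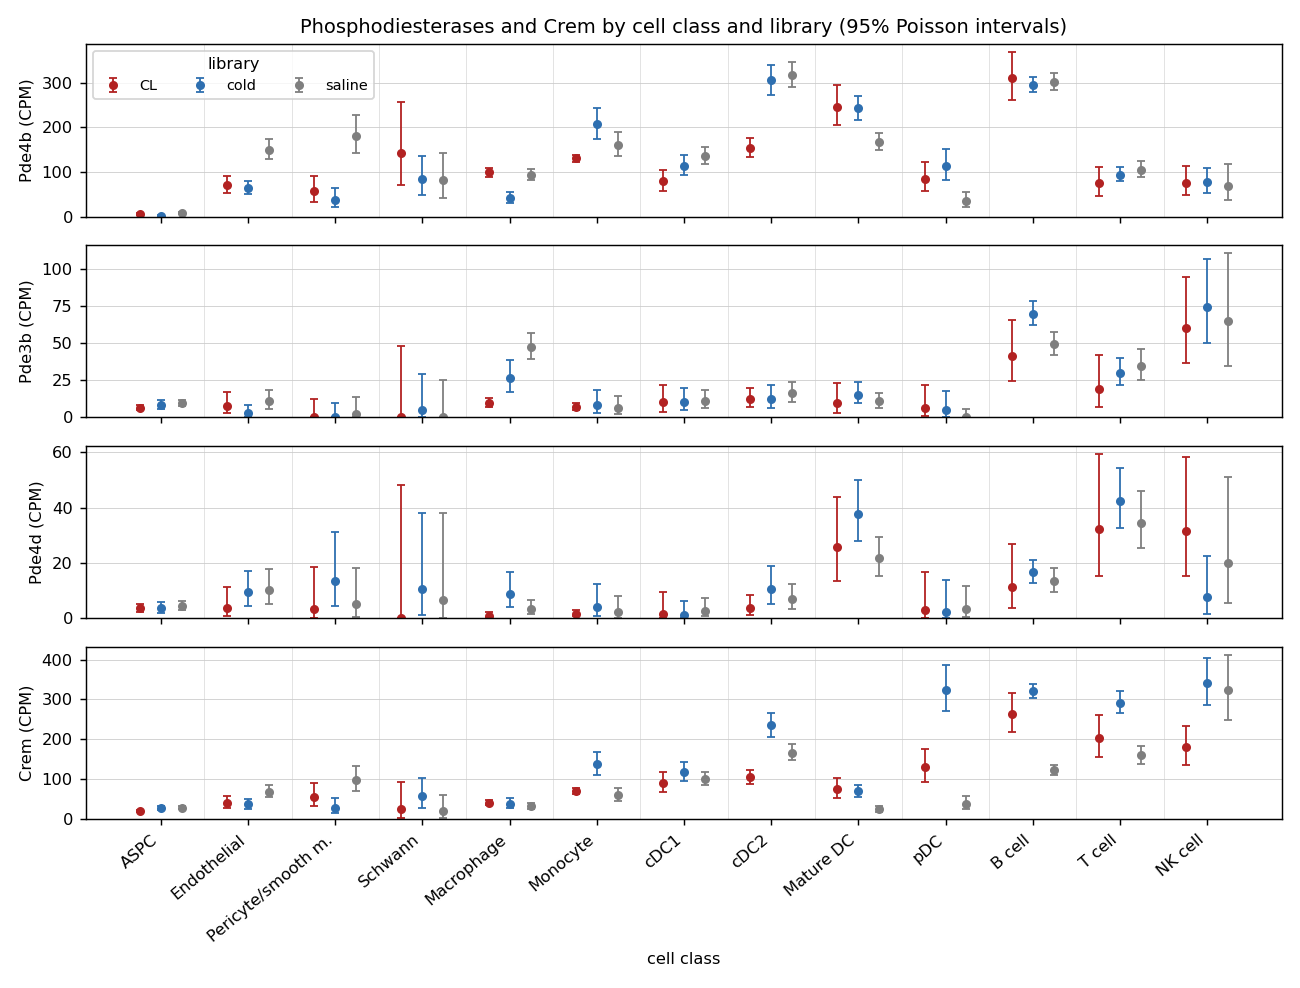
Levels of Pde4b, Pde3b, Pde4d and Crem in CPM, with 95% Poisson intervals, by cell class (named by nearest type) for the CL, cold and saline libraries. Pde4b is low in ASPC-like cells in all 3 libraries, and Crem in B cell-like and plasmacytoid dendritic cell-like cells is higher in CL and cold than in saline.

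Crem (ENSMUSG00000063889; chromosome 18, 3266048 to 3337748, minus strand) encodes activators and, from an inner promoter, ICER, a cyclic AMP-induced repressor that damps CREB targets; counts per gene do not separate them. Over the 3 libraries it had 6204 UMIs. By mean CPM the order ran from NK cell-like, 281 ± 87.5 (SD over the 3 libraries), through B cell-like, 236 ± 101, and T cell-like cells, 218 ± 67.2, down to macrophage-like, 37.7 ± 4.21, and ASPC-like cells, 25.8 ± 4.58. Neighbours in that order overlapped in their spread except the last pair. The genes most like Crem across 40 class sums were Vps37b (Pearson r = 0.91), Ago2 (0.88) and Ankrd11 (0.86).

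In B cell-like cells Crem was higher in both treated libraries. It stood at 263 CPM (217 to 316.1) in CL and 321 (304 to 339) in cold, against 124 (112 to 137) in saline, and the intervals of CL and cold overlap while that of saline lies below both. The ratios were 1.09 (0.77 to 1.39) for CL and 1.37 (1.21 to 1.54) for cold. A UMI was seen in 32.9%, 49.5% and 19.2% of cells, and in 29.1%, 34.7% and 15.3% after thinning each cell to 1500 UMIs, which left out 100 CL, 42 cold and 511 saline cells. Both large B cell-like clusters showed it: 247.5, 343 and 135 CPM in cluster 6 and 302, 313 and 123 CPM in cluster 13. The CL ratio was 0.98 at the coarser clustering, 0.87 in the largest cluster and 0.92 without the 3 cells with most UMIs. The cold ratio was 0.32 at most 5% mitochondrial UMIs, where 25 cold and 20 saline cells remained, and 1.41 in the cells over 5%. Median mitochondrial shares of B cell-like cells were 7.49% in CL, 8.22% in cold and 8.56% in saline, and median depths 1569.5, 2467 and 1695 UMIs. Their part in the result was not tested.

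The largest ratio of the 9 genes was that of Crem in plasmacytoid dendritic cell-like cells, the interferon-producing dendritic cells. Levels were 129.9 CPM (94.0 to 175) in CL and 325 (272 to 385) in cold, against 39.0 (25.0 to 58.0) in saline, with no overlap between the 3 intervals. The log2 ratios were 1.74 (0.98 to 2.52) and 3.06 (2.42 to 3.75), on 96 CL, 79 cold and 154 saline cells. Of these cells 33.3%, 63.3% and 12.3% held a UMI, or 17.5%, 33.0% and 5.29% at 1500 UMIs per cell. The 3 cells with most Crem held 8 of 43, 24 of 132 and 6 of 24 UMIs. Mature dendritic cell-like cells, the Ccr7-expressing migratory ones, had Crem at 75.0 CPM in CL and 69.9 in cold, against 26.0 in saline, ratios of 1.53 (0.88 to 2.17) and 1.43 (0.91 to 1.96). Monocyte-like cells differed in cold alone past 2-fold, at 70.6 CPM in CL and 138 in cold, against 60.1 in saline. The cold ratio was 1.20 (0.71 to 1.71), and 0.80 without clusters 18 and 10.

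Elsewhere Crem differed less. T cell-like cells had 203 CPM in CL and 292 in cold, against 159.8 in saline, with a cold ratio of 0.87 (0.63 to 1.11). NK cell-like cells had 181 CPM in CL and 340.4 in cold, against 323 in saline, a CL ratio of -0.84 (-1.38 to -0.30). Type 2 dendritic cell-like cells were split between treatments, at 105 CPM in CL and 236 in cold, against 167 in saline, and CL over cold was -1.17 (-1.48 to -0.87). In endothelial-like cells Crem stood at 40.4 and 37.4 CPM, against 69.1 in saline, ratios of -0.78 (-1.42 to -0.16) and -0.89 (-1.47 to -0.32).

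The NR4A genes code for nuclear receptors with no known natural ligand that act as early-response transcription factors. Nr4a1 (ENSMUSG00000023034; chromosome 15, 101254269 to 101274795) had 16565 UMIs, Nr4a2 (ENSMUSG00000026826; chromosome 2, 57106830 to 57124003) had 12579 and Nr4a3 (ENSMUSG00000028341; chromosome 4, 48045153 to 48086447) had 10476. Each had its highest mean of the 11 classes in NK cell-like cells, at 427 ± 66.8, 760 ± 116 and 539 ± 125 CPM (SD over the 3 libraries), overlapping the class that followed. Schwann-like cells, outside the 11 classes, had more Nr4a1 in every library, at 534 CPM in CL, 695 in cold and 912 in saline. Their Nr4a2 and the Nr4a1 of pericyte or smooth muscle-like cells are given below. Of the 11, the lowest class differed by gene: mature dendritic cell-like for Nr4a1 (78.6 ± 22.9), plasmacytoid dendritic cell-like for Nr4a2 (31.5 ± 11.3) and endothelial-like for Nr4a3 (39.2 ± 31.9). Mature dendritic cell-like cells thus had the lowest Nr4a1 and, at 495 ± 193 CPM, the second highest Nr4a3. At least 1 Nr4a UMI was held by 89.0%, 96.5% and 96.2% of type 1 dendritic cell-like cells in CL, cold and saline. The genes most like Nr4a1 were Per1 (Pearson r = 0.72), Map3k4 (0.68) and Hsd17b10 (0.68); Per1, a clock gene, is also on the list of CREB targets used here.

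Endothelial-like cells had less of all 3 Nr4a genes in both treated libraries. Nr4a1 stood at 151 CPM in CL and 151 in cold, against 300.04 in saline, ratios of -0.99 (-1.31 to -0.68) and -0.99 (-1.26 to -0.71). Nr4a2 stood at 56.0 CPM in CL and 110.3 in cold, against 229 in saline, ratios of -2.03 (-2.53 to -1.57) and -1.05 (-1.38 to -0.74). Nr4a3 stood at 18.2 CPM (9.96 to 30.6) in CL and 23.4 (15.1 to 34.5) in cold, against 75.9 (61.0 to 93.2) in saline, ratios of -2.06 (-2.98 to -1.24) and -1.70 (-2.40 to -1.05). At least 1 Nr4a UMI was held by 26.9% of CL and 31.3% of cold, against 52.0% of saline endothelial-like cells.

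The makeup of that class differed. Cluster 0, with capillary genes, held 86.7% of CL and 79.8% of cold, against 59.1% of saline endothelial-like cells, and cluster 5, with genes of larger vessels such as Vwf, the rest. Within cluster 0 alone Nr4a2 was at 56.0 CPM in CL and 99.3 in cold, against 116 in saline. Its ratios there moved to -1.05 for CL and -0.23 for cold, while Nr4a3 kept levels of 16.6 and 18.9 CPM, against 71.9 in saline. Nr4a3 stood at -2.38 in cold at most 5% mitochondrial UMIs.

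Other early genes of these endothelial-like cells were lower as well. Of 13 measured CREB target genes, 13 were lower in CL (median -0.88) and 13 in cold (median -1.02), against medians of -0.03 and -0.04 over all genes. That list includes Crem and the Nr4a genes, and shares Fos, Fosb and Dusp1 with a list of early-response genes raised by tissue dissociation. Of the early-response list, 18 of 18 measured genes were lower in each comparison, with medians of -1.02 and -0.92. Among all genes, 47.5% were higher in CL and 47.3% in cold. Summed, the 12 CREB targets outside the 9 genes were at 2446 CPM in CL and 2778 in cold, against 4620.2 in saline, and the 19 dissociation genes were at 8778 CPM in CL and 10273 in cold, against 18500 in saline. Egr1, an early-response transcription factor, was at 1127 and 1209 CPM, against 2709, and Fos at 1095 and 1420 CPM, against 2017. How far dissociation bears on the Nr4a ratios was not tested. The list of cyclic AMP production and protein kinase A genes did not share the direction. It had 6 of 15 higher in CL (median -0.20) and 9 of 17 in cold (0.15), near the 47.5% and 47.3% of all genes. Gnas, the stimulatory G protein, was at 0.42 (0.32 to 0.53) and 0.42 (0.32 to 0.52). Of 3 measured genes for other receptors that couple to this G protein, 1 was higher and 2 were lower in each comparison. Adora2a was the higher one. The lower ones were Calcrl at -0.84 (-1.29 to -0.42) and -0.44 (-0.80 to -0.09) and the prostaglandin receptor Ptger4 at -0.87 (-1.55 to -0.23) and -1.30 (-1.96 to -0.67).

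B cell-like cells had more Nr4a RNA in both treated libraries. Nr4a3 stood at 179 CPM (141 to 223) in CL and 142 (131 to 154) in cold, against 49.8 (42.3 to 58.2) in saline. Its ratios were 1.84 (1.43 to 2.24) and 1.51 (1.25 to 1.78); CL stood at 1.26 with at least 1000 detected genes, and cold at 0.20 at most 5% mitochondrial UMIs, in the same 25 and 20 cells as above. Nr4a2 stood at 68.7 CPM in CL and 52.8 in cold, against 26.3 in saline, ratios of 1.38 (0.73 to 2.002) and 1.00 (0.63 to 1.39). With at least 1000 detected genes these were 0.96 for CL and 0.95 for cold; CL was 0.92 at the finer clustering, and cold 0.99 at the coarser one and 0.98 without the 3 cells with most UMIs. Nr4a1 stood at 394 CPM in CL and 309 in cold, against 237 in saline, ratios of 0.73 (0.49 to 0.97) and 0.38 (0.25 to 0.52). At least 1 Nr4a UMI was held by 59.4% of CL and 61.6% of cold, against 37.2% of saline B cell-like cells. The 12 CREB targets outside the 9 genes did not rise with them as a sum, at 1086 CPM in CL and 953 in cold, against 1007 in saline. The summed dissociation genes differed little, at 4770 CPM in CL and 4695 in cold, against 4350 in saline. In B cell-like cells, 10 of 18 of them were higher in CL and 7 of 18 in cold, against 45.2% and 42.5% of all genes.

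In plasmacytoid dendritic cell-like cells the Nr4a genes did not move as a group. Nr4a3 stood at 202 CPM (157 to 257) in CL and 322 (269 to 382) in cold, against 114 (88.6 to 144) in saline, ratios of 0.83 (0.33 to 1.34) and 1.504 (1.07 to 1.94). Nr4a1 stood at 290.0 CPM in CL and 327 in cold, against 294 in saline, and Nr4a2 had 11, 17 and 12 UMIs. The dissociation genes went opposite to Nr4a3 and Crem: 15 of 16 were lower in each treated library, while 55.8% of all genes were higher in CL and 58.1% in cold. The dissociation genes had medians of -1.40 and -1.16 against 0.06 and 0.11 over all genes. Summed, they were at 5323 CPM in CL and 4305 in cold, against 16423 in saline. The summed 12 CREB targets outside the 9 genes were also lower, at 1695 CPM in CL and 1547 in cold, against 4143 in saline. Jun, an AP-1 factor, was at 465 and 111 CPM, against 3576, and the chaperone gene Hspa1a at 462 and 19.7 CPM, against 1992.

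Mature dendritic cell-like cells had Nr4a3 at 681 CPM in CL and 511 in cold, against 295 in saline, ratios of 1.21 (1.01 to 1.40) and 0.79 (0.63 to 0.96). Nr4a1 in the same cells stood at 92.7, 52.2 and 90.9 CPM, so that cold was the low library. Conventional dendritic cells differed in CL: Nr4a3 was at 153 CPM in CL and 361 in cold, against 367 in saline, in type 1 dendritic cell-like cells, a CL ratio of -1.27 (-1.60 to -0.94). Type 2 dendritic cell-like cells had 304 and 602 CPM, against 572, a CL ratio of -0.91 (-1.08 to -0.74). Nr4a2 was likewise lowest in CL in both of these classes, at 469.8 and 722 CPM, against 627, and at 357 and 629.7 CPM, against 481. Summed dissociation genes were highest in saline in all 3 of these dendritic classes: 7827 CPM in CL and 7205 in cold, against 10528 in saline, in mature, 6297 and 7044 CPM, against 10728, in type 1 and 7662 and 8753 CPM, against 10079, in type 2 dendritic cell-like cells. Their part in these ratios was not tested.

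In ASPC-like cells all 3 Nr4a genes were lower in cold than in saline, while in CL Nr4a1 and Nr4a2 were higher and Nr4a3 lower, each by less than 2-fold. Nr4a1 stood at 215 CPM in CL and 113 in cold, against 189 in saline, ratios of 0.19 (0.08 to 0.29) and -0.74 (-0.89 to -0.59). Nr4a2 stood at 67.1 and 36.7 CPM, against 58.0, and Nr4a3 at 70.7 and 46.4 CPM, against 79.4, with cold ratios of -0.66 (-0.93 to -0.40) and -0.77 (-1.01 to -0.54). Of 14 measured CREB targets 13 were lower in cold (median -0.68) and 9 in CL (median -0.11), against medians over all genes of 0.06 and 0.07. That list includes Crem and the Nr4a genes. The summed level of the 12 CREB targets outside the 9 genes was not lower in cold, at 4594 CPM in CL and 5414 in cold, against 5300 in saline. Among all genes, 57.0% were higher in cold and 56.1% in CL. Most CL ASPC-like cells, 718 of 1105, were in cluster 17, which held 4 cold and 69 saline cells. The direction for CL differed between clusters, in several cases within counting error. In cluster 8, where most cold and saline cells lay, Nr4a3 was at 157 CPM in CL and 57.7 in cold, against 107 in saline. In the other clusters Nr4a3 was lower in CL than in saline: 13.6 against 42.3 CPM in cluster 7, 63.6 against 71.7 in cluster 17 and 41.1 against 52.5 in cluster 19. For Nr4a3 the counting intervals of CL and saline overlap in clusters 17 and 19. In cluster 7 Nr4a1 and Nr4a2 were lower in CL as well, at 98.9 against 159.7 CPM and at 17.4 against 27.3 CPM. The intervals of Nr4a2 overlap there. Nr4a2 was also lower in CL in cluster 17, at 53.8 (47.7 to 60.6) against 102 (77.3 to 132) CPM. It was higher in CL in cluster 8, at 124 against 57.0 CPM. In cluster 19 Nr4a2 was at 117 against 113 CPM, with intervals that overlap. Nr4a1 was lower in CL in cluster 19, at 229 against 258 CPM. In cluster 8 it was higher, at 299 against 192 CPM, and in cluster 17, at 208 against 176 CPM. The Nr4a1 intervals of CL and saline overlap in clusters 17 and 19. Summed dissociation genes of the class were at 12254 CPM in CL and 15455 in cold, against 16370 in saline.

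Macrophage-like cells had Nr4a1 at 196 CPM in CL and 129 in cold, against 98.7 in saline, ratios of 0.99 (0.79 to 1.20) and 0.38 (0.07 to 0.69). Within cluster 11 the levels were 182 and 124 CPM, against 96.8, in the same order. Monocyte-like cells had Nr4a1 at 299.8 CPM in CL and 265 in cold, against 281 in saline, with both intervals across 0. T cell-like cells had Nr4a3 at 306 CPM in CL and 470.0 in cold, against 333 in saline, a cold ratio of 0.50 (0.32 to 0.67). NK cell-like cells had all 3 genes below saline in both treated libraries, with ratios between -0.10 and -0.65, beside summed dissociation genes at 4086 CPM in CL and 6533 in cold, against 8358 in saline. Of the rarer stromal classes, Schwann-like cells had Nr4a2 at 547 CPM in CL and 1174 in cold, against 1328 in saline, and pericyte or smooth muscle-like cells had Nr4a1 at 424 and 462 CPM, against 1017. Their summed dissociation genes were also highest in saline, at 11852 and 17014 CPM, against 20747, in Schwann-like cells and at 12926 and 15484 CPM, against 20517, in pericyte or smooth muscle-like cells.

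**Figure D5:**
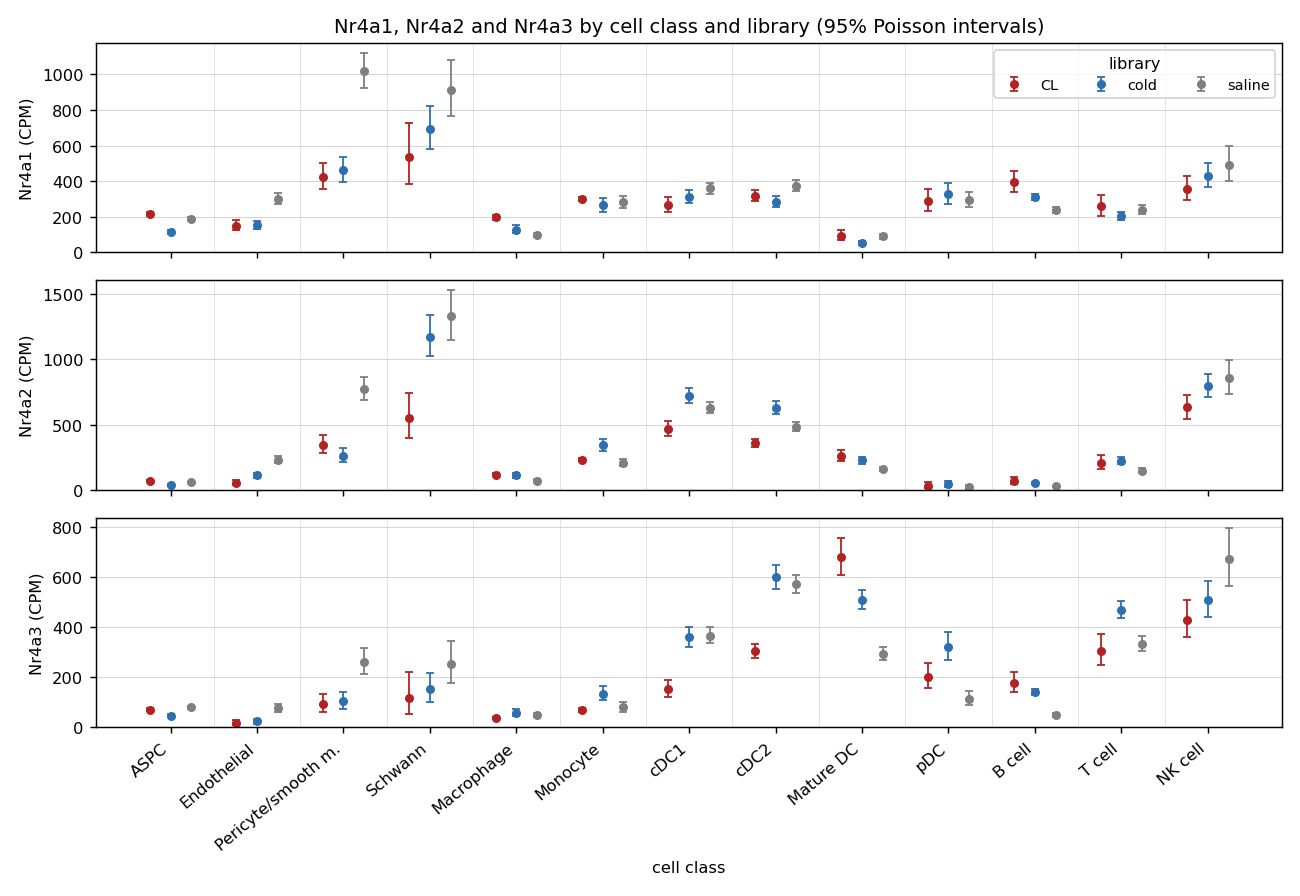
Levels of Nr4a1, Nr4a2 and Nr4a3 in CPM, with 95% Poisson intervals, by cell class (named by nearest type) for the CL, cold and saline libraries. Saline is the highest of the 3 in endothelial-like, pericyte or smooth muscle-like and Schwann-like cells, while CL and cold lie above saline for Nr4a3 in B cell-like, plasmacytoid dendritic and mature dendritic cell-like cells.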

How the data were processed

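The deposited values are raw UMI counts, made by the authors with Cell Ranger 3.0.2 per the file headers, on build mm10 per the submitters' processing notes. The annotation and the settings are not given in the sources used here. These counts were not normalized, and every barcode had at least 500 UMIs. The 9 genes and the pathway lists were chosen with earlier results of these data known. Barcodes with under 500 genes or over 15% mitochondrial UMIs were left out, and free RNA was not subtracted. Scrublet's automatic limits called 64 CL, 4 cold and 86 saline cells (0.955%, 0.104% and 1.37%), so the caller did not work in cold; doublets were kept, and removing them was tried. With scanpy 1.11.5 (10000 UMIs per cell, log, 2000 variable genes, 30 components, 15 neighbours, seed 1), Leiden clusters at resolution 1 took the class of their fixed markers, each of which needed 50 CPM and 1 on the log2 scale over the other cells, with 3 markers as the minimum. UMIs were summed per class and library, with exact Poisson intervals for CPM, exact Clopper-Pearson intervals for shares and exact conditional binomial intervals for ratios. A ratio required 50 cells in either library and, in the one with more, 20 UMIs. Intervals take UMIs as independent and so understate the error where a handful of cells carries the RNA. The ratio step was tested on simulated Poisson counts, the model that its intervals assume. That test does not cover variation between cells or libraries. Of each list, the up to 4 members with most UMIs in a class could be named. Genes like a member were the 3 with the highest correlation. Coordinates are from GENCODE M21 (GRCm38).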

Additional observations from a re-analysis of the deposited data

Results flagged for a closer look

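The differences between classes given first are listed because 1 class was at least 2-fold higher and another at least 2-fold lower in the same comparison, with intervals clear of 0 on both sides; the difference itself was not tested. For Pde4b, CL over saline differed by 2.34 on the log2 scale between plasmacytoid dendritic cell-like (1.24) and endothelial-like cells (-1.09). Cold over saline for Pde4b differed by 3.57 between plasmacytoid dendritic cell-like (1.66) and ASPC-like cells (-1.90). For Nr4a2, the difference between B cell-like and endothelial-like cells was 3.42 in CL (1.38 and -2.03) and 2.06 in cold (1.00 and -1.05). For Nr4a3, it was 3.90 in CL (1.84 and -2.06) and 3.21 in cold (1.51 and -1.70). The summed dissociation genes of these classes are given in the report, and their part was not tested.

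Adrb3 is listed because it was seen in barcodes that the comparisons do not use. It stood at 7.99 CPM from 8 UMIs in the 392 barcodes with at least 500 genes and over 15% mitochondrial UMIs, above the 3 UMIs that a count of 0 allows, which is 3.00 CPM there. In these barcodes it was at 20.6 CPM in CL, 4.39 in cold and 0 in saline, where a count of 0 allows up to 11.8 CPM.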

How the results depend on the processing

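No paired analysis was possible because each group has 1 library. Of the 26 ratios to saline at or past 2-fold with intervals clear of 0, all 275 values under the alternatives kept their direction. Of these values, 22 belong to the requirement of 50 UMIs, which repeats the main ratio and could not change its direction. Another 26 belong to Scrublet's automatic limits, which left out only 64 CL, 4 cold and 86 saline cells. Alternatives that left under 20 cells in a library, or a count of 0, gave no value. At most 5% mitochondrial UMIs gave 16 values within counting error and 2 beyond it, and none for the other ratios. The size factors shifted the median gene by between -0.13 and 0.22 on the log2 scale, by class. Such a shift could not change the direction of a ratio at or past 2-fold, so the 26 size-factor values were no test of direction. The ratios moved by more than counting error in the following cases, whose cause was not tested. Pde4b in ASPC-like cells, cold over saline, was -3.33 without the 3 cells with most UMIs. Crem in B cell-like cells, cold over saline, was 0.32 at most 5% mitochondrial UMIs, 1.57 with at least 1000 genes, 1.17 at resolution 0.5 and 1.58 at resolution 2. Nr4a3 in B cell-like cells was 0.20 in cold at most 5% mitochondrial UMIs, and 1.26 in CL with at least 1000 genes and 2.24 in the largest cluster. Nr4a2 in endothelial-like cells was -1.05 in CL in the largest cluster, and in cold -0.23 there and -1.41 with each cell weighing the same. Pde3b in macrophage-like cells, CL over saline, was -0.16 in the largest cluster and -0.85 without clusters 18 and 10, a setting chosen after seeing the data. Under that setting CL over cold reversed for Pde4b (-0.015) and Pde3b (0.12). Splitting cells at 5% mitochondrial UMIs was also chosen after seeing the data. Thinning to 1500 UMIs moved 174 of 182 shares, since it removes UMIs by construction.

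Requiring 50 UMIs in place of 20 can only lower the number of genes past 2-fold, since it keeps a part of the same genes. It left these numbers in CL and cold: 498 and 183 in ASPC-like, 290.0 and 132 in B cell-like, 405 and 286 in endothelial-like, 983 and 132 in macrophage-like, 112 and 62 in mature dendritic, 491 and 281 in monocyte-like, 131 and 29 in NK cell-like, 97 and 141 in plasmacytoid dendritic, 214 and 197 in T cell-like, 155 and 64 in type 1 dendritic and 348 and 64 in type 2 dendritic cell-like cells. The genes measured at 50 UMIs were not counted, so no share is given. Depth limits the receptors most, with 51 Adrb1 and 14 Adrb3 UMIs over all cells.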
